A study of Mus musculus with 6 samples.

Results

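The genes described here encode nuclear subunits of the mitochondrial respiratory chain and ATP synthase. Members were chosen by platform gene symbol: Nduf (complex I, without the Ndufaf assembly factors), Sdha to Sdhd (complex II), Uqcr (complex III), Cox4 to Cox8 (complex IV) and Atp5 (complex V). The symbols gave 79 genes of 12393 on the arrays, with 34 in complex I, 4 in complex II, 8 in complex III, 16 in complex IV and 17 in complex V. They were measured by 150 probe sets, and each gene was read from its brightest probe set, by mean level over the 6 arrays. A further 8 probe sets carried a member's symbol together with another gene's and named no gene.

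The samples were sorted cells of high-grade mouse gliomas, 4 from tumours driven by EGFRvIII and 2 from tumours driven by PDGF-B. EGFRvIII is a truncated EGF receptor that signals without ligand, and PDGF-B is a ligand of the platelet-derived growth factor receptors. Per the labels, neural progenitors of mouse embryos were given a retroviral vector with the driver and DsRed and were grafted into the brains of adult BALBc mice. The strain label, which the growth protocol gives to the progenitors, is BALBc INK4a -/- for every EGFRvIII sample and BALBc for both PDGF-B samples. The driver and the INK4a genotype thus differed together and cannot be told apart. The label fields differ on the sorted reporter (DsRed or EGFP) and on whether the cells had been cultured or came straight from the tumour. Each group's samples are labelled biological replicates, and nothing more is said of separate animals, so the p-values measure only the spread between these samples.

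The respiratory chain passes electrons from NADH through complex I, or from succinate through complex II, to ubiquinone. Complex III hands them on to cytochrome c, complex IV reduces oxygen with them, and complex V uses the proton gradient built on the way to make ATP. Complexes I, III, IV and V also hold subunits encoded by mitochondrial DNA, which were not analysed here. Glioma cells are known for high glycolysis, and many of them respire as well.

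Values are log2 intensities after robust multi-array averaging (RMA). Each log2 fold change is the EGFRvIII mean minus the PDGF-B mean, given with its standard error (SE). A gene was tested where at least 2 arrays had it above their own median probe set. Of all genes 6753 were tested, 54.5% of 12393, and 151 of them passed the limma test at an adjusted p (Benjamini-Hochberg) under 0.05. EGFRvIII cells were higher in 111 (1.64%) and lower in 40 (0.592%). Leaving out PDGF-B replicate 1 took the total to 0, with 1111 genes still at an unadjusted limma p under 0.05. Leaving out PDGF-B replicate 2, EGFRvIII replicate 1 or EGFRvIII replicate 4 gave totals of 7, 17 and 21 in that order. Oligodendrocyte progenitor markers were bright, with array means of 11.46 to 11.85 in EGFRvIII and 11.16 to 11.38 in PDGF-B cells over the 10 markers measured. Of the markers of microglia and macrophages (15 measured), endothelium (9), T and NK cells (7) and red blood cells (3) none was bright enough to be tested. Their array means lay between 4.21 and 4.91 in EGFRvIII and between 4.29 and 4.86 in PDGF-B cells. The 7 mature neuron markers had array means of 4.42 to 4.83 in EGFRvIII and 5.35 to 5.70 in PDGF-B cells, and 1 of them, Snap25, was tested. Of 9 pericyte and fibroblast markers 1 was tested, Cspg4, which also marks oligodendrocyte progenitors. The part of other cells in the results below was not tested.

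Most subunit genes were slightly higher in EGFRvIII cells, and no single gene passed the test. Of the 79 members 72 were bright enough to be tested, and 59 of these had a positive and 13 a negative log2 fold change. The largest values were 0.61 for Uqcr11 and -0.81 for Cox6a2. None of the 72 passed over all genes (limma; 2.24% of all genes tested passed), and the smallest adjusted p was 0.0984, for Uqcrh. At an unadjusted p under 0.05 there were 15 members, 20.8% of those tested, against 25.0% of all genes tested. Of the 15, 11 were higher (15.7% of all genes tested were) and 4 lower (9.33% of all genes tested were). In these bulk samples, less RNA per cell and fewer cells of a type cannot be told apart.

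The small shift was shared by many members. Their median log2 fold change was 0.20, against 0.06 over all genes tested, and 81.9% of them had a positive value, against 56.5% of all genes tested. In 34 members (47.2%) every EGFRvIII array lay above both PDGF-B arrays, which held for 22.5% of all genes tested. In 5 members (6.94%) every EGFRvIII array lay below both PDGF-B arrays, against 14.9% of all genes tested. The arrays' own medians were on average 0.13 higher in EGFRvIII. After subtraction of the array medians the members split into 43 positive and 29 negative values with a median of 0.07, while the median over all genes tested was -0.07. By complex the centred medians were 0.08 (I), 0.13 (II), 0.23 (III), 0.01 (IV) and -0.02 (V). This subtraction takes the same 0.13 from every gene, so any smaller value turns negative and the distance of 0.15 between the members' median and that of all genes cannot change. That distance was 0.24 with quantile normalization and 0.08 with the probe sets of each gene averaged.

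Genes of like brightness had medians nearer 0 than the members. Among the 1226 tested genes with a mean level between 10 and 12 the median log2 fold change was 0.01, and for the 42 members among them it was 0.23, with 35 positive values. Among the 212 tested genes above 12 it was -0.02, and for the 22 members among them 0.15, with 18 positive values. In the range from 8 to 10 the values were 0.05 for 2891 genes and 0.31 for 7 members.

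**Figure D1:**
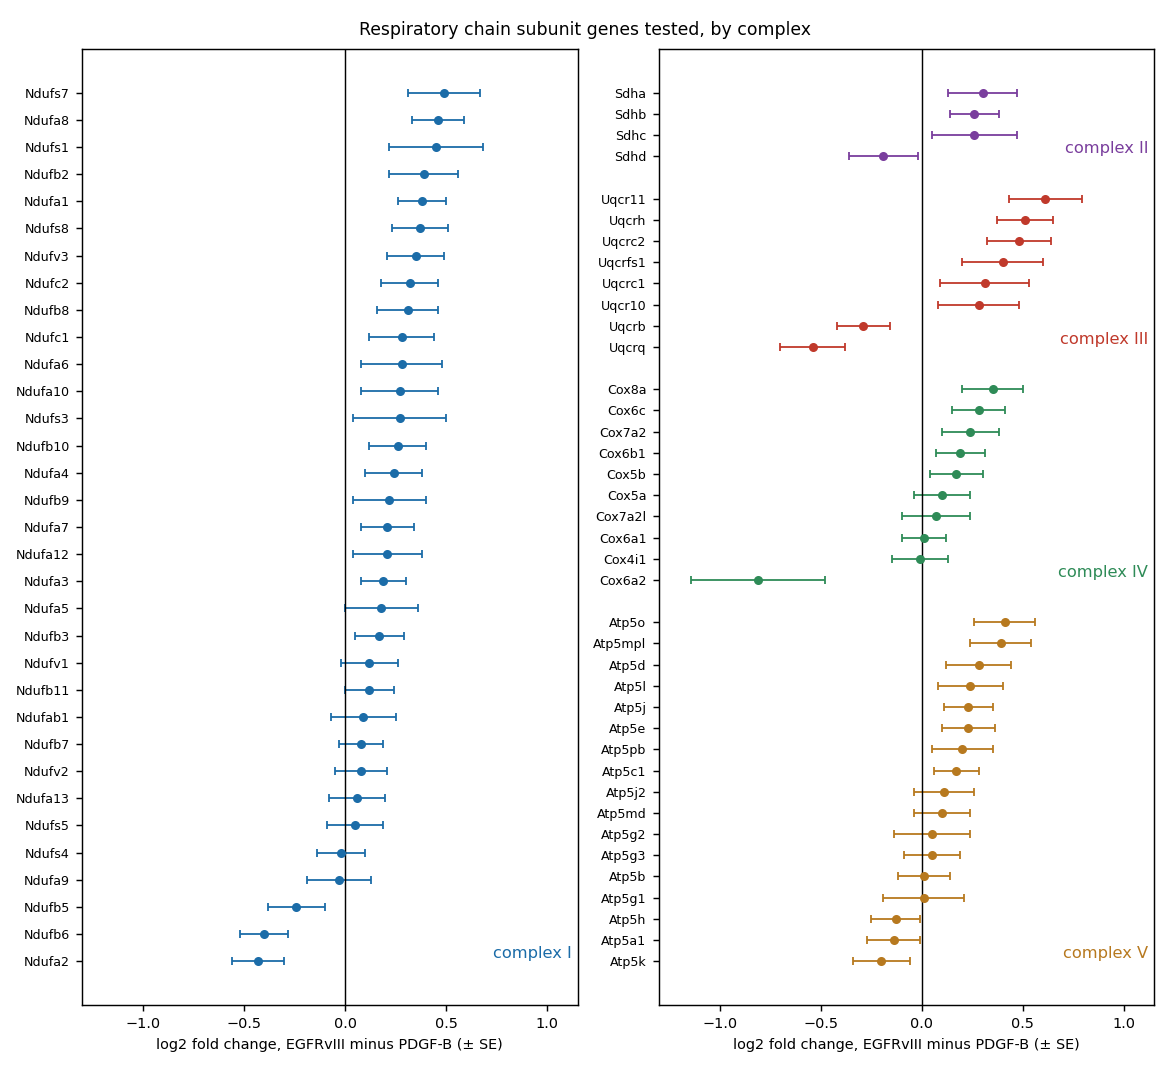
Log2 fold change (EGFRvIII minus PDGF-B, points) with its SE (bars) for the 72 tested subunit genes, complex I on the left and complexes II to V on the right. Most points lie right of 0, from Uqcr11 at 0.61 to Cox6a2 at -0.81, and no gene passed the test over all genes. With array medians subtracted, 43 instead of 59 genes lie right of 0.

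Promoters of the members with the smallest p are shown because nuclear respiratory genes are known targets of a few shared transcription factors. RefSeq (build GRCm38.p6) gave start sites for 65 of the 79 members, in 70 windows of 300 bases (250 before and 50 after the start). The motifs searched on both strands were the 10-base palindrome of NRF1 (nuclear respiratory factor 1), CCGGAAG (ETS factors, which include GABP, also called nuclear respiratory factor 2) and AAGATGGCG (YY1). The lines below give the 150 bases before the start of the 4 members with the smallest p that had an entry, 5′ to 3′ on the gene's strand, with any of these motifs in capitals. Uqcrh lies at chr4:116075071-116075220, Ndufa8 at chr2:36049339-36049488, Uqcr11 at chr10:80406822-80406971 and Ndufb6 at chr4:40279422-40279571, all on the minus strand.
Uqcrh: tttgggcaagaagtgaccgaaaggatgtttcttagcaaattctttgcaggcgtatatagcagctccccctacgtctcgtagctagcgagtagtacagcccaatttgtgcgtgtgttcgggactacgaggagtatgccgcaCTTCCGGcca
Ndufa8: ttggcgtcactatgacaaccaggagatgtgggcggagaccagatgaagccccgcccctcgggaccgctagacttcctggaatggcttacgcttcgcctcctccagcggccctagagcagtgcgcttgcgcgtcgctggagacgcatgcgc
Uqcr11: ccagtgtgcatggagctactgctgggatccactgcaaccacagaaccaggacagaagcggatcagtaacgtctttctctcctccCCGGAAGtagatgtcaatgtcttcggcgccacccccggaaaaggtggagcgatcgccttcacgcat
Ndufb6: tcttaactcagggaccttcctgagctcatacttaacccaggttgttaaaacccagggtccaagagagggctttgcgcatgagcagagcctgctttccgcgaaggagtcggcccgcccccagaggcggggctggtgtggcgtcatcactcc

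The capitals in Uqcrh and Uqcr11, both higher in EGFRvIII cells, are the ETS motif, on opposite strands. No motif fell in the printed stretches of Ndufa8, which was higher in EGFRvIII cells, or Ndufb6, which was lower. Ndufb6 did have an ETS match farther from its start, at -232 to -226, within the searched window. The NRF1 motif was found before the start of Atp5g2 (chr15:102671060-102671109), Atp5k (chr5:108434420-108434469) and Cox6a1 (chr5:115349091-115349140), all on the minus strand, shown here with their flanks and the motif in capitals.
Atp5g2: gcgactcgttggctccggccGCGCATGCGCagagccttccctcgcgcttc
Atp5k: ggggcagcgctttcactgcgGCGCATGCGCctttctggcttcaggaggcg
Cox6a1: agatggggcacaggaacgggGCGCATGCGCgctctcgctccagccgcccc

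The ETS motif was in 17 of 70 member windows (24.3%), against 8.86% of all 32851 RefSeq windows of the same length, coding and non-coding genes together. The NRF1 motif was in 4 (5.71%, against 0.971%) and the YY1 motif in 6 (8.57%, against 1.40%). The fourth NRF1 match lay after the start of Uqcrc1. Base composition was not matched between these windows. The 17 tested members with an ETS match had a median log2 fold change of 0.23 and the 43 without one 0.20. For the NRF1 motif the medians were 0.03 over 4 members with it and 0.21 over 56 without it, and for YY1 0.17 over 6 and 0.20 over 54.

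Complex I, the NADH dehydrogenase, had 33 of 34 genes tested, and none passed. Of these, 28 stood higher and 5 lower in EGFRvIII cells. The median log2 fold change was 0.21, and 17 were higher in every EGFRvIII array than in both PDGF-B arrays (51.5%, against 22.5% of all genes tested). Ndufb11 had a log2 fold change of 0.12, and Ndufc1 had 0.28 by its brightest probe set and -0.09 by the other. Ndufa8, an accessory subunit on the intermembrane space side, stood at 10.65, 10.64, 10.72 and 10.42 in EGFRvIII replicates 1 to 4, against 10.16 and 10.14 in PDGF-B replicates 1 and 2. All EGFRvIII arrays were above both PDGF-B arrays (log2 fold change 0.46, SE 0.13; limma adjusted p = 0.101). Ndufa1, an X-linked membrane arm subunit needed for assembly, was at 11.68, 11.82, 11.71 and 11.68 in EGFRvIII and 11.29 and 11.40 in PDGF-B cells. Its groups did not overlap either (log2 fold change 0.38, SE 0.12, limma adjusted p = 0.116).

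By their brightest probe sets, the core subunits of complex I that carry iron-sulphur clusters or the flavin were mostly on the higher side. Ndufs7, which holds the last cluster before ubiquinone, was at 10.99, 11.22, 11.52 and 11.03 in EGFRvIII and at 10.77 and 10.62 in PDGF-B cells (log2 fold change 0.49, SE 0.18, limma adjusted p = 0.157). Ndufs8, also an iron-sulphur subunit, averaged 10.97 ± 0.11 in EGFRvIII and 10.61 ± 0.16 in PDGF-B cells (SD, n = 4 and 2; limma adjusted p = 0.163). In both genes the groups did not overlap by the brightest probe set. For Ndufs8 that is an _x_at probe set, and its others ran from -0.02 to 0.36. Ndufs1, the large iron-sulphur subunit, averaged 9.47 ± 0.35 in EGFRvIII and 9.02 ± 0.03 in PDGF-B cells (SD, n = 4 and 2), with EGFRvIII replicate 3 at 9.94 above the rest. The flavoproteins Ndufv1 and Ndufv2 had log2 fold changes of 0.12 and 0.08 by their brightest probe sets, with overlapping groups. For Ndufv1 that is an _x_at probe set, and its others gave 0.34 and 0.29. The other Ndufv2 probe sets gave -0.07 and -0.16.

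A few accessory subunits of complex I stood lower in EGFRvIII cells. Ndufa2, a subunit of the NADH-oxidising arm, was at 11.83, 11.81, 11.79 and 11.94 in EGFRvIII and 12.40 and 12.14 in PDGF-B cells (log2 fold change -0.43, SE 0.13, limma adjusted p = 0.110). Ndufb6, of the distal membrane arm, was at 10.72, 10.63, 10.79 and 10.77 in EGFRvIII and 11.21 and 11.04 in PDGF-B cells (log2 fold change -0.40, SE 0.12, limma adjusted p = 0.112). Both were lower in every EGFRvIII array, as was Ndufb5 (-0.24, limma adjusted p = 0.335). For Ndufb6 and Ndufb5 a second probe set gave 0.10 and 0.28. Ndufs4, whose loss in mice causes a fatal brain disease, was nearly level (-0.02, SE 0.12), and so was Ndufa9 (-0.03, SE 0.16). Ndufb1 was dim at 5.47 ± 0.02 in EGFRvIII and 5.42 ± 0.10 in PDGF-B cells and was not tested.

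Complex II, succinate dehydrogenase, also works in the tricarboxylic acid cycle, and all its 4 genes were tested without a call. Their median log2 fold change was 0.26, or 0.16 without EGFRvIII replicate 3 and also with the probe sets of each gene averaged. Sdhb, the iron-sulphur subunit, was at 11.27, 11.31, 11.22 and 11.15 in EGFRvIII and 10.97 and 10.98 in PDGF-B cells (log2 fold change 0.26, SE 0.12, limma adjusted p = 0.217). Its groups did not overlap. Sdha, the flavoprotein, was at 11.64, 11.48, 11.89 and 11.54 in EGFRvIII and 11.49 and 11.18 in PDGF-B cells (limma adjusted p = 0.309). Of the membrane anchors, Sdhc averaged 10.69 ± 0.32 in EGFRvIII and 10.43 ± 0.02 in PDGF-B cells, and Sdhd averaged 9.88 ± 0.22 and 10.07 ± 0.02 (SD, n = 4 and 2). The differences of both anchors were smaller than the spread among the EGFRvIII arrays. Sdhc had a log2 fold change of 0.26 by its brightest probe set and -0.13 by the other. For Sdhd these values were -0.19 and -0.02.

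Complex III, the cytochrome bc1 complex, had the highest median log2 fold change of the complexes, 0.36 over its 8 tested genes, or 0.22 without EGFRvIII replicate 3. Of the 8, 6 had a positive value, 4 were higher and 2 lower without overlap of the groups (22.5% and 14.9% of all genes tested), and none passed. Uqcrh, the hinge protein that binds cytochrome c1, was at 11.15, 11.19, 11.44 and 11.18 in EGFRvIII and 10.62 and 10.86 in PDGF-B cells (log2 fold change 0.51, SE 0.14, limma adjusted p = 0.0984). Uqcr11, a small membrane subunit, was at 11.08, 11.16, 11.46 and 10.88 in EGFRvIII and 10.57 and 10.50 in PDGF-B cells, a 1.53-fold difference (log2 fold change 0.61, SE 0.18, limma adjusted p = 0.103). Uqcrc2, a core protein, was at 10.24, 10.17, 10.53 and 10.25 in EGFRvIII and 9.99 and 9.65 in PDGF-B cells (log2 fold change 0.48, limma adjusted p = 0.138). A second Uqcrc2 probe set gave 0.51. In all these genes the EGFRvIII arrays lay above both PDGF-B arrays.

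Other complex III genes were less clear. Uqcrfs1, the Rieske iron-sulphur protein, averaged 9.87 ± 0.28 in EGFRvIII and 9.47 ± 0.07 in PDGF-B cells (SD, n = 4 and 2; log2 fold change 0.40, limma adjusted p = 0.257), and Uqcrc1, the other core protein, had 0.31 with overlapping groups. Uqcrq, a small ubiquinone-site subunit, went the other way, at 10.13, 10.58, 10.46 and 10.26 in EGFRvIII and 10.96 and 10.84 in PDGF-B cells (log2 fold change -0.54, SE 0.16, limma adjusted p = 0.107). Uqcrb was lower by its brightest probe set (-0.29, limma adjusted p = 0.211) and higher by its other one (0.43). Cyc1, the catalytic cytochrome c1, is not named Uqcr and was nearly level at 9.66, 10.30, 10.58 and 10.06 in EGFRvIII and 10.02 and 10.18 in PDGF-B cells.

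Complex IV, cytochrome c oxidase, had 10 of 16 genes tested, with a median log2 fold change of 0.14 (0.08 without PDGF-B replicate 2, and 0.03 with the probe sets of each gene averaged), 8 positive values and no call. Cox8a was at 10.71, 10.70, 10.99 and 10.59 in EGFRvIII and 10.42 and 10.36 in PDGF-B cells, without overlap (log2 fold change 0.35, SE 0.15, limma adjusted p = 0.193). Cox7a2, Cox6b1, Cox6c and Cox5b had values from 0.17 to 0.28 by their brightest probe sets, again without overlap. Their other bright probe sets gave -0.02 for Cox7a2, -0.09 for Cox6b1, -0.38 for Cox6c and -0.11 to -0.03 for Cox5b. Cox4i1, a regulatory subunit of the ubiquitous form, had a log2 fold change of -0.01 (SE 0.14), Cox6a1 0.01 (SE 0.11) and Cox5a 0.10 (SE 0.14). Other Cox5a probe sets gave -0.25 and -0.15. Cox7a2l, a factor that joins complexes III and IV into supercomplexes, had 0.07 (SE 0.17). Ndufa4, named for complex I but known as a complex IV subunit, averaged 12.09 ± 0.13 in EGFRvIII and 11.85 ± 0.12 in PDGF-B cells (SD, n = 4 and 2; limma adjusted p = 0.325).

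Several complex IV subunits have isoforms made in particular tissues, and those measured here were dim, with Cox6a2 alone bright enough to be tested. Cox6a2, the heart and muscle isoform, was at 6.5, 6.26, 7.05 and 7.0 in EGFRvIII and 8.0 and 7.03 in PDGF-B cells, so PDGF-B replicate 1 alone stood apart (log2 fold change -0.81, SE 0.33, limma adjusted p = 0.194). Without that array the value was -0.33. The muscle forms Cox7a1 and Cox8b, the testis forms Cox6b2 and Cox8c and the oxygen-regulated lung form Cox4i2 were not tested, with group means of 4.44 to 6.43 in EGFRvIII and 4.58 to 6.53 in PDGF-B cells. The levels of these untested forms lie below the arrays' medians, and no direction is read from them. Cox7c was measured only by dim probe sets, at 5.48 ± 0.22 in EGFRvIII and 4.95 ± 0.28 in PDGF-B cells (SD, n = 4 and 2), and was not tested. Cox7b, Cox7b2 and Ndufa4l2 were not analysed here.

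Complex V, the ATP synthase, had all 17 genes tested, with a median log2 fold change of 0.11, 14 positive values and no call. The median was 0.06 without EGFRvIII replicate 3, and without PDGF-B replicate 1 it was 0.19. With the probe sets of each gene averaged it was 0.05. Atp5o, which anchors the catalytic head to the stalk, was at 11.58, 11.51, 11.90 and 11.60 in EGFRvIII and 11.18 and 11.29 in PDGF-B cells, without overlap (log2 fold change 0.41, SE 0.15, limma adjusted p = 0.154). A second Atp5o probe set gave -0.65. Atp5mpl, a small membrane subunit, was at 12.13, 11.97, 12.28 and 11.99 in EGFRvIII and 11.85 and 11.55 in PDGF-B cells (log2 fold change 0.39, SE 0.15, limma adjusted p = 0.177). The catalytic subunit Atp5b had a log2 fold change of 0.01 (SE 0.13), and the alpha subunit Atp5a1 -0.14 (SE 0.13). Other Atp5a1 probe sets gave 0.29 and -0.15. Atp5j, a stalk subunit, averaged 12.04 ± 0.10 in EGFRvIII and 11.82 ± 0.03 in PDGF-B cells (SD, n = 4 and 2; limma adjusted p = 0.293). Atp5h had -0.13 by its brightest probe set and 0.08 by the other, and Atp5j2 had 0.11 and -0.01. Atp5k had the lowest value of the complex, -0.20 by its brightest probe set, and its others gave 0.26 and -0.15. Of the rotor and stalk, Atp5d and Atp5c1 had 0.28 and 0.17, and Atp5pb had 0.20 by its brightest probe set and -0.12 by the other. The genes Atp5g1, Atp5g2 and Atp5g3, which encode the same mature ring subunit, had 0.01, 0.05 and 0.05 with overlapping groups, and Atp5g2 alone ran from 10.48 to 11.03 in PDGF-B cells.

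**Figure D2:**
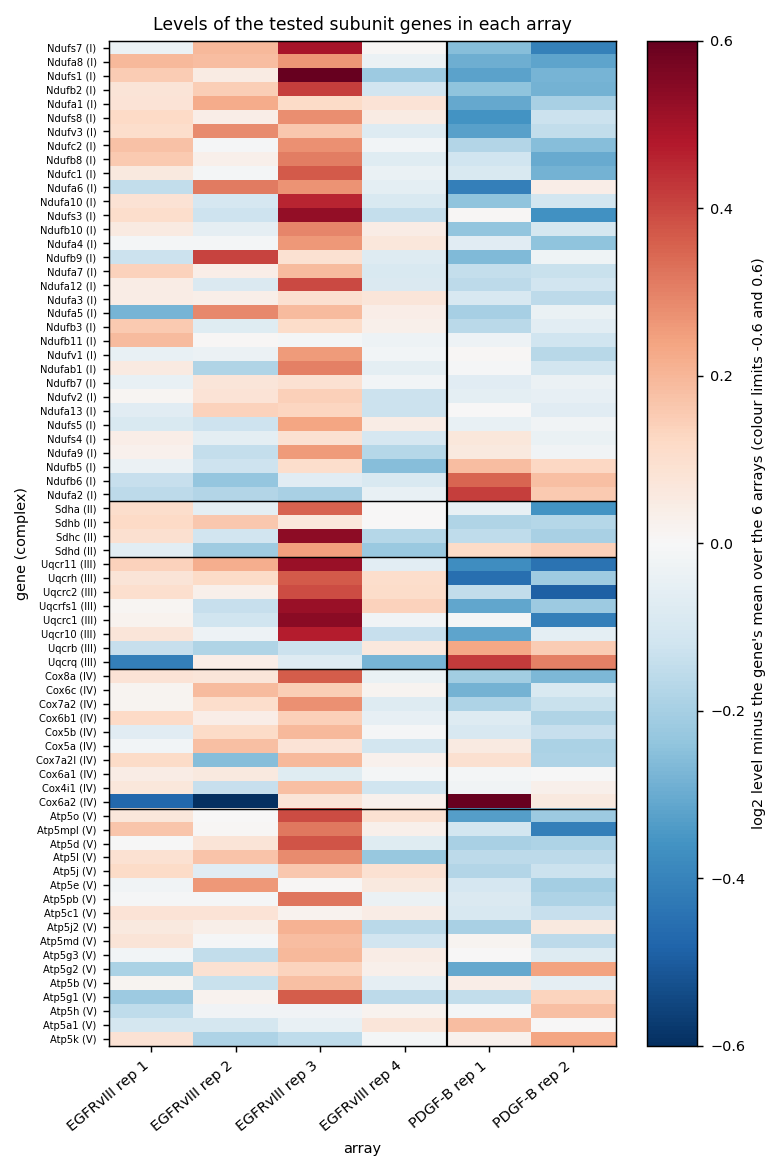
Level of each tested subunit gene in each array, as the log2 level minus the gene's own mean over the 6 arrays, with the complex in parentheses. EGFRvIII arrays stand left of the line and PDGF-B arrays right of it. EGFRvIII replicate 3 has the highest level of the EGFRvIII arrays in 52 of the 72 genes.

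The mean over the 72 members was 11.33, 11.32, 11.54 and 11.28 in EGFRvIII replicates 1 to 4 and 11.23 and 11.20 in PDGF-B replicates 1 and 2, a difference of 0.15 between the groups with an SD of 0.12 among the EGFRvIII arrays. EGFRvIII replicate 3 was the highest of its group for 52 of 72 members (72.2%), against 30.4% of all genes tested. It was so in every complex, for 24 of 33 genes in complex I, 3 of 4 in complex II, 6 of 8 in complex III, 7 of 10 in complex IV and 12 of 17 in complex V. Its array median was also the highest, 6.84 against 6.71 to 6.82 in the other EGFRvIII arrays and 6.66 in both PDGF-B arrays. With the medians centred it was the highest of its group for 43 members (59.7%), against 21.7% of all genes tested. Without this array 54 of the 72 members stood higher in EGFRvIII cells, with a median log2 fold change of 0.15.

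Ppargc1a, which encodes PGC-1 alpha, a coactivator known to drive mitochondrial gene expression, was highest in the same array. It was at 7.16, 4.28, 9.10 and 6.39 in EGFRvIII replicates 1 to 4 and at 5.72 and 3.91 in PDGF-B replicates 1 and 2, so the groups overlapped (log2 fold change 1.92, limma adjusted p = 0.367). All 5 of its probe sets were highest in EGFRvIII replicate 3, at 7.31 to 9.10. In EGFRvIII replicate 2 they were at 3.26 to 4.28, and that array's mean over the members (11.32) lay between those of replicates 1 and 4. Ppargc1a was singled out after its values were seen, and its part in the members' levels was not tested.

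**Figure D3:**
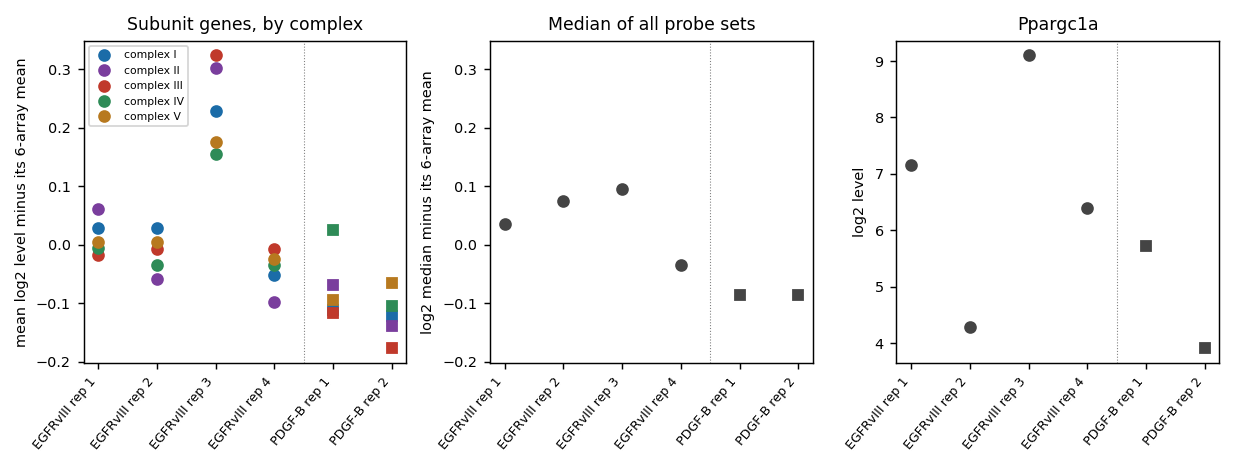
Left, mean log2 level of the tested subunit genes of each complex in each array, minus that mean's average over the 6 arrays; middle, the same for the median of all probe sets; right, the log2 level of Ppargc1a. Circles are EGFRvIII and squares PDGF-B arrays. Every complex and Ppargc1a (9.10) are highest in EGFRvIII replicate 3.

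Of 16 tested genes of mitochondrial biogenesis and mitochondrial DNA upkeep, Ppargc1a among them, 6 stood higher in EGFRvIII cells (37.5%, against 56.5% of all genes tested) and 10 lower. Their median log2 fold change was -0.25, and none passed. Tfam packages mitochondrial DNA and helps to start its transcription. It was at 8.12, 7.93, 8.15 and 7.91 in EGFRvIII and 8.60 and 8.63 in PDGF-B cells (log2 fold change -0.59, SE 0.13, limma adjusted p = 0.062). Nrf1, which binds the NRF1 motif above, was at 8.11, 8.14, 8.16 and 8.11 in EGFRvIII and 8.72 and 8.47 in PDGF-B cells (log2 fold change -0.46, SE 0.12, limma adjusted p = 0.0857). In both genes every EGFRvIII array lay below both PDGF-B arrays, as in 6 of the 16 (37.5%, against 14.9% of all genes tested).

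Genes that build or feed the chain had small positive medians. The groups' array medians differed by 0.13, and the median log2 fold change over all tested genes was 0.06. By mean level that median was 0.11 under 8, 0.05 from 8 to 10, 0.01 from 10 to 12 and -0.02 over 12. The assembly factors of complex I had a median log2 fold change of 0.13 (9 tested, 6 positive), with Ndufaf7, a methyltransferase for a complex I subunit, at 0.62 (limma adjusted p = 0.106) and Ndufaf5 at 0.48. Those of complexes II to V had 0.14 (22 tested, 19 positive), with Cox15, needed for haem a, at 0.41 (limma adjusted p = 0.146) and Uqcc3 at 0.42. Genes of cytochromes c and c1, ubiquinone synthesis, electron transfer flavoproteins and carriers had 0.17 (12 tested, 9 positive). Among them Etfdh, which passes electrons of fatty acid oxidation to ubiquinone, was at 9.45, 9.23, 9.68 and 9.30 in EGFRvIII and 8.70 and 9.03 in PDGF-B cells (log2 fold change 0.55, limma adjusted p = 0.123), and its partner Etfa had 0.47. Tricarboxylic acid cycle genes had 0.14 (15 tested, 11 positive), with Suclg2 at 0.88 (limma adjusted p = 0.227) and Cs, citrate synthase, at 0.28.

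Mitochondrial ribosomal proteins had a median of 0.09 (71 tested, 50 positive), with Mrpl41 at 0.48 (limma adjusted p = 0.0905) and Mrpl44 at -0.36. Genes of protein import and folding had a median of -0.01 (19 tested, 9 positive). Hspd1, the mitochondrial chaperonin, was at 11.80, 11.55, 11.96 and 11.75 in EGFRvIII and 12.32 and 12.26 in PDGF-B cells (log2 fold change -0.53, SE 0.15, limma adjusted p = 0.0943), and the import subunit Timm50 had 0.36. No gene of any of these lists passed, and differences between the lists were not tested.

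**Figure D4:**
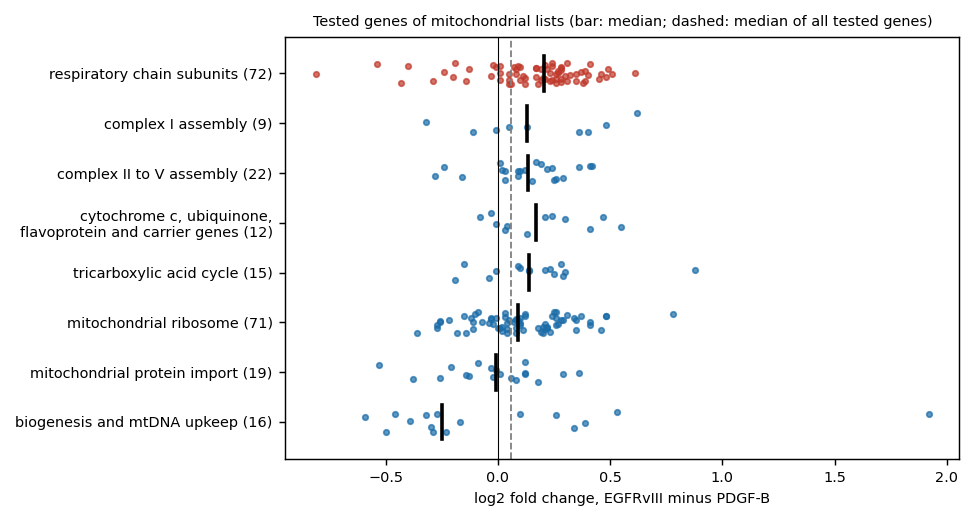
Log2 fold change (EGFRvIII minus PDGF-B) of every tested gene of the respiratory chain and of related mitochondrial lists, with the number tested in parentheses. Bars are medians, 0.20 for the subunits and -0.25 for biogenesis and mitochondrial DNA upkeep, and the dashed line is the median of all tested genes, 0.06. The rightmost point is Ppargc1a.

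The choice of probe set decided the sign for many members. Of the 39 members with at least 2 probe sets above the brightness filter, 21 had probe sets that differed in sign. The same share over all genes was not counted. Some of these signs rest on values near 0, such as -0.01 for Atp5j2 and -0.02 for Cox7a2 and Ndufs8. Suffixes tell what a probe set was designed for: one ending in _at only is meant for a single gene's transcripts, _a_at for several transcripts of a gene, _s_at for transcripts of related genes, and _x_at holds probes that also match other sequences. Nuclear respiratory genes are known to have many processed pseudogenes. The 52 bright probe sets ending in _at only had a median log2 difference of 0.20 with 43 positive, and the 25 ending in _x_at had -0.02 with 12 positive. Over all bright probe sets of single genes the medians were 0.05 (7026 probe sets) and -0.06 (800). The median was 0.22 for the 37 _a_at and 0.11 for the 15 _s_at probe sets of members.

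The widest gaps were in Atp5o, with 0.41 by an _a_at and -0.65 by an _x_at probe set, in Uqcrb, with 0.43 by an _at and -0.29 by an _a_at probe set, and in Cox6c, with 0.28 by an _at and -0.38 by an _a_at probe set. Ndufs4 ran from 0.12 to -0.48, Ndufa12 from 0.21 to -0.38 and Ndufa7 from 0.21 to -0.30, each lowest by an _x_at probe set. Ndufb5 ran from 0.28 to -0.24 and Ndufb6 from 0.10 to -0.40, each lowest by an _a_at probe set. Of the 13 tested members with a negative log2 fold change 8 were among the 43 read by _a_at, _s_at or _x_at probe sets, and 5 among the 29 read by probe sets that end in _at only, a like share. With all probe sets of a gene averaged the members' median was 0.12, with 54 of 71 positive. The opposite sign was then given to Atp5o (-0.12), Cox6c (-0.05), Uqcrb (0.07) and Ndufb5 (0.02), among others. The cause of these differences was not tested.

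**Figure D5:**
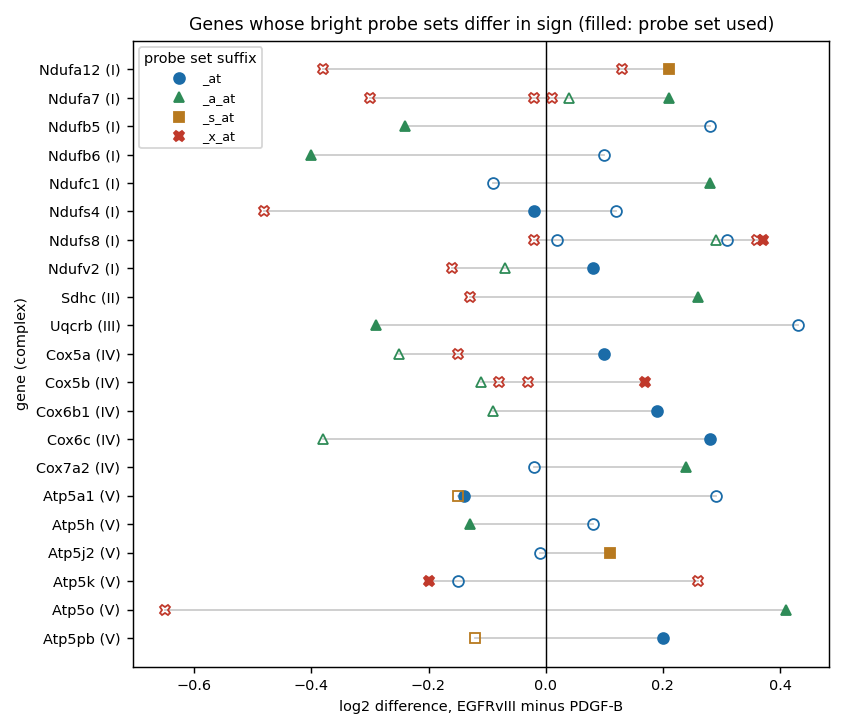
Log2 difference (EGFRvIII minus PDGF-B) of every bright probe set of the 21 members whose bright probe sets differ in sign, by suffix. Filled marks are the probe set used for the gene. The lowest mark is the _x_at probe set of Atp5o at -0.65.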

How the data were processed

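RNA of each sample was amplified, labelled with biotin and put on 1 array, per the labels' protocols. The deposited values are log2 intensities of 22690 probe sets (64 of them controls), made by the authors with RMA and the affy package 3.4.2, per the submitters' processing notes (the range, 2.22 to 14.4, shows the log base). A second deposited table differed by at most 5e-09. By the array's gene annotation 20380 probe sets had 1 symbol, 691 had several and 1555 had none; 20351 were matched to RefSeq symbols by Entrez identifier.

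The groups (EGFRvIII, 4 arrays; PDGF-B, 2 arrays) were tested with limma 3.58.1 under R 4.3.3 (two-sided; lmFit, then eBayes), with 4 residual and 2.81 prior degrees of freedom, no covariate and no further normalization. The number of arrays limits the precision. P-values were adjusted over all 6753 tested genes. The procedure was tested on simulated data. Members, lists and tests were chosen with earlier results of these data known.

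Members named are, of each complex, the 4 with the smallest p, the brightest and the dimmest; the 5 largest differences either way; isoform pairs; every Sdh gene; and genes whose probe sets differ in sign. Of each related list the 2 genes with the smallest p are named. Cyc1, Ppargc1a, Atp5b, Atp5c1, Ndufa9, Ndufb1, Ndufv1, Cox7c and Uqcrfs1 were added after their values were seen. Alternatives are given at the end.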

Additional observations from a re-analysis of the deposited data

Results flagged for a closer look

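Of 78 values compared among the 4 EGFRvIII arrays, 7 had a single array that stood well off the rest; about 1 group in 20 does so by chance. In 6 of these the array was EGFRvIII replicate 3. Uqcrh was at 11.44 there against 11.15 to 11.19 in the others, Ndufv1 at 11.03 against 10.73 to 10.76, and Atp5pb at 11.51 against 11.15 to 11.18. The mean of complex III was 10.99 against 10.65 to 10.66, that of complex IV 11.83 against 11.64 to 11.67, and that of complex V 12.01 against 11.81 to 11.84. These means share their genes' arrays and are not independent of each other. Ndufa1 was at 11.82 in EGFRvIII replicate 2 against 11.68 to 11.71.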

How the results depend on the processing

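No member passed under any of the 18 alternatives; the smallest adjusted p was 0.0569, with a trended robust variance (24 members at an unadjusted p under 0.05). The members' median was 0.07 with array medians centred and otherwise 0.12 to 0.23; without 1 array it ran from 0.15 to 0.23, and 54 to 62 of 72 members were positive. The count over all genes was 77 with no filter, 265 with genes above the median in all 6 arrays, 253 with a trended robust variance, 3 with the Xist signal as a covariate, 25 in the 4 arrays with high Xist, and 0 to 186 without 1 array. Replicate numbers are shared by the groups, but with 2 pairs they are not shown to pair the arrays (correlations of deviations 0.203 and 0.246). The distance of the members' median from that of all genes was 0.24 with quantile normalization, 0.08 with the mean of probe sets and 0.10 with the replicate block, against 0.15. With the replicate block 9 genes passed, and the members' median was 0.16 with 52 positive. The arrays with high Xist were EGFRvIII replicates 3 and 4 and both PDGF-B arrays, so the groups were not balanced for Xist. The complex III median, 0.36 in the main test, was 0.20 with the replicate block, 0.51 with the Xist covariate and 0.52 in those arrays.

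None of the values whose sign turned was called. They include Atp5o, at 0.41 by its brightest probe set, and Uqcrb, Cox6c and Ndufb5 at -0.29, 0.28 and -0.24. With array medians centred Atp5g1 was -0.12, Atp5g2 -0.08, Atp5g3 -0.08, Atp5j2 -0.02, Cox5a -0.03, Cox6a1 -0.11, Cox7a2l -0.06, Ndufb11 -0.01 and Ndufv2 -0.05. With the mean of probe sets Atp5g2 was -0.10, Atp5o -0.12, Cox5a -0.10, Cox6c -0.05, Ndufa12 -0.03, Ndufa7 -0.01, Ndufb5 0.02, Ndufv2 -0.05 and Uqcrb 0.07. With the replicate block Atp5g1 was -0.09, Atp5g2 -0.02, Atp5g3 -0.05 and Cox7a2l -0.02. Cox4i1 was 0.04 with quantile normalization, 0.00 with array weights, 0.01 with Xist as a covariate and 0.03 among the high-Xist arrays, and Cox6a1 was -0.03 in both of the last; Atp5g1 was -0.03 with array weights. Without 1 array Atp5g1 ran from -0.13 to 0.15, Atp5g2 from -0.22 to 0.32, Atp5g3 from -0.01 to 0.11, Atp5j2 from -0.02 to 0.23, Cox4i1 from -0.07 to 0.04, Cox5a from -0.02 to 0.22, Cox6a1 from -0.00 to 0.04, Cox7a2l from -0.07 to 0.21 and Ndufs4 from -0.08 to 0.03. The cause was not tested.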
